A study of Mus musculus with 76 samples.

Results

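The genes described here were 73 extracellular matrix genes of the mouse hippocampus, out of 11807 genes that the array measured. They were chosen by name: every collagen, laminin, matrix metalloproteinase (Mmp) and numbered ADAMTS gene with a single symbol in the probe annotation, together with Smoc1, Smoc2, Sparc, Sparcl1, Ogn, Dcn, Lum, Bgn, Fn1 and Fbln1. This choice was made with earlier results of these data known, so counts of members beside shares of all probe sets are not those of a blind choice. Each gene was read from the probe set with the highest mean signal over the 76 arrays. By role, they comprised 8 fibrillar collagens, 8 basement membrane collagens, 7 beaded, network and anchoring collagens, 6 fibril-associated collagens, 3 transmembrane collagens, 8 laminins, 4 small leucine-rich proteoglycans, 4 members of the SPARC family, fibronectin and fibulin 1, 16 matrix metalloproteinases and 7 ADAMTS proteases. Their signals were mostly dim, with 53 of the 73 below the median of all probe sets (median log2 signal of the members 3.85, of all probe sets 5.34).

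RNA came from the hippocampus of 76 female mice, bred as littermates, with 1 array per mouse. rTg4510 mice carry human tau with the P301L mutation behind a tetracycline-responsive element (FVB/N parent). They also carry the tetracycline transactivator tTA (parent of another strain) under the CaMKIIα promoter, which is active in forebrain excitatory neurons. The mice called tTA had the transactivator but no tau transgene, and those called DN, for double negative, had neither. Mice with the tau transgene alone were not analysed here, so a difference between rTg4510 and tTA mice holds mutant tau and its insertion together, and one between tTA and DN mice holds the transactivator and its insertion together. rTg4510 arrays were grouped around 1.9 months (n = 10), 4.7 months (n = 10) and 6.1 months (n = 6). tTA and DN arrays were grouped around 4.7 months (n = 10 each), 6.1 months (n = 10 each) and 10.7 months (n = 5 each). Control mice of 1.9 months and rTg4510 mice of 10.7 months were not analysed here, and each age comparison rests on different mice. Correlations between arrays of a group were high, the lowest median being 0.990. tTA mouse 21 (6.1 months) and rTg4510 mouse 40 (4.7 months) stood apart from their groups.

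The extracellular matrix of the brain differs from that of other organs. Fibrillar collagens, small leucine-rich proteoglycans and fibronectin are made mainly by fibroblasts of the meninges and around vessels, and type IV collagen and laminins form the basement membranes of vessels. Within the tissue itself, Sparc and Sparcl1 are secreted by glia, while ADAMTS proteases and matrix metalloproteinases cleave the matrix and its receptors. In bulk tissue, fewer cells of a type and less RNA per cell cannot be told apart, and the same holds for how much meninges or choroid plexus was dissected with the hippocampus.

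The promoters of 4 members that were higher in rTg4510 than in tTA mice are shown to give the sequence context of the genes that moved. They run from 250 bases before to 50 bases after the gene start and were taken from RefSeq (mouse build GRCm38.p6). A promoter was used for 45 of the 73 members, after a chromosome filter that was not applied to the set of all promoters. Capitals mark the motifs searched, on both strands: the TATA box (TATAAA), the CCAAT box (CCAAT), the Sp1 GC box (GGGCGG) and the AP-1 site (TGANTCA), the last of which stood in none of these windows. They were Col16a1 at chr4:130047590-130047889 on the + strand, Sparc at chr11:55420031-55420330 on the - strand, Ogn at chr13:49607765-49608064 on the + strand and Bgn at chrX:73483351-73483650 on the + strand.
Col16a1: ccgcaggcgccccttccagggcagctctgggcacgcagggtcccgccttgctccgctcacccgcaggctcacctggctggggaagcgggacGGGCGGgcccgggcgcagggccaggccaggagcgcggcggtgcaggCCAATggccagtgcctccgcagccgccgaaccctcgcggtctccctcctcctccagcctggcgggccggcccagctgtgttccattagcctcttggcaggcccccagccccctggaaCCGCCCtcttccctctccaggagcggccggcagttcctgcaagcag
Sparc: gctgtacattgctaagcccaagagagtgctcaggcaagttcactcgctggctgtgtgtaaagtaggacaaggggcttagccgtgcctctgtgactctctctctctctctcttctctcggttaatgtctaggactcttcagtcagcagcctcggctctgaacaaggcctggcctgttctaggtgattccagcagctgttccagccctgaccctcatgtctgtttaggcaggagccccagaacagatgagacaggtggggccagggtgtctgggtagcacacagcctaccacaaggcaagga
Ogn: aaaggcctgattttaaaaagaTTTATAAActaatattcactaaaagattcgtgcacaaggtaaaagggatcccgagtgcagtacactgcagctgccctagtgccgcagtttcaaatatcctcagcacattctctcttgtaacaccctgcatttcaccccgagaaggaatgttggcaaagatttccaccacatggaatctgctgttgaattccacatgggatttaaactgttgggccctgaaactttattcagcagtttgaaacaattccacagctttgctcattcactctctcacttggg
Bgn: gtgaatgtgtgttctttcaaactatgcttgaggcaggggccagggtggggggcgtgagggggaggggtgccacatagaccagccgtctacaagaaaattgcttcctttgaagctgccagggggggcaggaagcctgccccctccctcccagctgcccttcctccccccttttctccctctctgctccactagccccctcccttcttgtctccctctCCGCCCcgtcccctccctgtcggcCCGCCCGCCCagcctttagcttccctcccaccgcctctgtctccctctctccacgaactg
Col16a1 held the GC box 159 bases before its start and, on the other strand, 4 bases after it, and the CCAAT box between them. Bgn held the GC box 3 times on the other strand, 34, 10 and 6 bases before the start, of which those at 10 and 6 share letters. Ogn held TATAAA on both strands in overlapping letters, 227 and 229 bases before the start, well upstream of where a TATA box usually lies. In the Sparc window none of these letters was found. Over the 45 member promoters, TATAAA stood in 28.9% against 13.6% of all 32851 promoters, GGGCGG in 48.9% against 35.7%, CCAAT in 31.1% against 37.4% and TGANTCA in 13.3% against 7.81%. These are matches of letters and no evidence of binding.

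Between rTg4510 and tTA mice of 4.7 months, 10 of the 73 members passed the threshold of a Benjamini-Hochberg adjusted p of 0.05 over all 22626 probe sets, and all 10 were higher in rTg4510. Over all probe sets, 7.47% passed, 4.47% higher and 3% lower. The median difference of the members was 0.08 on the log2 scale, against -0.02 over all probe sets. The 10 were spread over the roles: Ogn and Bgn of the 4 small leucine-rich proteoglycans, Sparc and Smoc1 of the 4 SPARC family members, Col3a1, Col16a1 and Col4a5 among the collagens, Mmp14, and the proteases Adamts1 and Adamts4. Of the 8 laminins, 0 passed. Without rTg4510 mouse 40 the count was 11.

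Ogn encodes osteoglycin and Bgn biglycan, both small proteoglycans that bind collagen fibrils. At 4.7 months the log2 signal of Ogn was 3.80 to 5.93 (median 5.31, mean 5.20 ± 0.67, SD, n = 10) in rTg4510 mice and 3.54 to 5.12 (median 4.05, mean 4.27 ± 0.57, SD, n = 10) in tTA mice. The rTg4510 mice were higher by 0.93 on the log2 scale (SE 0.256, adjusted p = 0.0201), 1.91-fold, with 8 of 10 above every tTA mouse. Bgn ranged from 6.75 to 7.89 (median 7.40) in rTg4510 and from 6.33 to 7.10 (median 6.70) in tTA mice. Its difference was 0.68 (SE 0.147, adjusted p = 0.0029), or 1.60-fold, and 7 of 10 rTg4510 mice lay above every tTA mouse. The second probe sets of both genes moved the same way, by 1.14 for Ogn (adjusted p = 0.00465) and 0.70 for Bgn (adjusted p = 0.00574).

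Sparc encodes a secreted collagen-binding glycoprotein. At 4.7 months its signal was 10.40 to 11.11 (median 10.84) in rTg4510 mice and 10.19 to 10.74 (median 10.36) in tTA mice, and 8 of 10 rTg4510 mice were above every tTA mouse. The difference was 0.45 (SE 0.0734, adjusted p = 0.000146), a 1.36-fold higher signal. Col16a1, a fibril-associated collagen, ranged from 4.66 to 5.80 (median 5.29) against 4.56 to 5.03 (median 4.84), a difference of 0.48 (SE 0.111, adjusted p = 0.00551), with 8 of 10 rTg4510 mice above every tTA mouse. Smoc1, a matricellular relative of Sparc, ranged from 6.33 to 6.97 (median 6.66) against 6.12 to 6.88 (median 6.30), a difference of 0.33 (SE 0.0851, adjusted p = 0.0139). The groups overlapped in Smoc1, with 2 of 10 rTg4510 mice above every tTA mouse.

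The remaining 5 members at 4.7 months passed less firmly. Col3a1, a fibrillar collagen, was 0.91 higher (SE 0.268, adjusted p = 0.0322), Mmp14, a membrane-bound protease that activates Mmp2, 0.54 (SE 0.155, adjusted p = 0.0277), Adamts1 0.32 (SE 0.101, adjusted p = 0.0435), Col4a5 0.29 (SE 0.0903, adjusted p = 0.0398) and Adamts4, which cleaves aggrecan, 0.23 (SE 0.0729, adjusted p = 0.043). Each of these calls was lost when some single mice were left out: Adamts1 kept its call in 18 of 30 such fits, Adamts4 and Col4a5 in 19, Col3a1 in 20 and Mmp14 in 24, whereas Ogn, Bgn, Sparc, Col16a1 and Smoc1 kept it in all 30. The second probe sets of Col3a1 (0.08, adjusted p = 0.29), Col4a5 (0.16, adjusted p = 0.279), Adamts4 (0.17, adjusted p = 0.17) and Mmp14 (0.26, adjusted p = 0.062) did not pass.

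At 6.1 months, 10 of the 73 members passed between rTg4510 and tTA mice, 8 higher and 2 lower, where 12.6% of all probe sets passed, 5.54% higher and 7.08% lower. With each array centred on its median the split was 6 higher and 5 lower, and without tTA mouse 21 the count was also 10. The median difference was 0.03 on the log2 scale. Col16a1 was 0.82 higher (SE 0.123, adjusted p = 2.41e-05), or 1.77-fold, with values of 5.15 to 5.96 (median 5.48) in rTg4510 and 4.49 to 5.06 (median 4.69) in tTA mice, so that all 6 rTg4510 mice lay above every tTA mouse. Sparc was 0.50 higher (SE 0.0681, adjusted p = 5.38e-06), with 10.79 to 11.16 (median 11.01) against 10.29 to 10.71 (median 10.49), and again all 6 rTg4510 mice were above every tTA mouse. Sparcl1, an astrocyte-secreted relative of Sparc, was 11.85 to 11.98 (median 11.88) against 11.57 to 11.81 (median 11.71), 0.20 higher (SE 0.0381, adjusted p = 0.000616), with 6 of 6 rTg4510 mice above every tTA mouse. Smoc2 was 0.34 higher (SE 0.0886, adjusted p = 0.0104), with 5.95 to 6.61 (median 6.45) against 5.87 to 6.37 (median 6.00). It had not differed detectably at 4.7 months (-0.09, adjusted p = 0.627). The second probe set of Smoc2 gave 0.43 (adjusted p = 0.00174) at 6.1 months.

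The other calls at 6.1 months were weaker. Lamb2, a laminin of vascular and synaptic basement membranes, was 0.35 higher (SE 0.111, adjusted p = 0.0363), Adamts4 0.34 (SE 0.113, adjusted p = 0.0464), Mmp12, a protease of macrophages, 0.21 (SE 0.0589, adjusted p = 0.0178) and Col11a2 0.20 (SE 0.0662, adjusted p = 0.0411). Mmp24, a membrane-bound neuronal metalloproteinase, was lower by 0.26 (-0.26, SE 0.0601, adjusted p = 0.00382) and Mmp23 by 0.17 (-0.17, SE 0.0535, adjusted p = 0.0386). Mmp12, Mmp23 and Col11a2 were dim, with mean log2 signals of 2.96, 3.28 and 3.55 against a median of 5.34 over all probe sets. Adamts4 kept its call in 8 of 26 fits without single mice, Col11a2 in 16, Mmp23 in 17, Lamb2 in 18 and Mmp12 in 24, while Mmp24, Col16a1, Sparc, Sparcl1 and Smoc2 kept it in all 26. The second probe sets of Adamts4, Mmp23 and Mmp24 pointed the other way (-0.04, 0.02 and 0.01), none past the threshold.

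Across both ages, 17 members passed at 4.7 or 6.1 months and 3 at both, Adamts4, Col16a1 and Sparc, which is 30% of each list. Over all probe sets, 1030 passed at both ages, 60.9% of the list of 4.7 months and 36.1% of that of 6.1 months. No mouse was measured at both ages. Bgn was 0.60 higher at 6.1 months (SE 0.232, adjusted p = 0.0959), Ogn 0.41 (SE 0.426, adjusted p = 0.631) and Mmp14 0.31 (SE 0.147, adjusted p = 0.183), none past the threshold. The test of the difference between the ages (an interaction of genotype and age over rTg4510 and tTA mice) passed for 0 of the 73 members and for 0% of all probe sets, with 6 members (8.22%) and 1599 probe sets (7.07%) at an unadjusted p under 0.05. Smoc2 had an interaction of 0.43 (SE 0.135, unadjusted p = 0.0031, adjusted p = 0.52), the difference being larger at 6.1 months. Its signal was 6.03 to 6.56 at 4.7 months and 5.95 to 6.61 at 6.1 months in rTg4510 mice. In tTA mice it was 6.15 to 6.86 and 5.87 to 6.37.

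**Figure D1:**
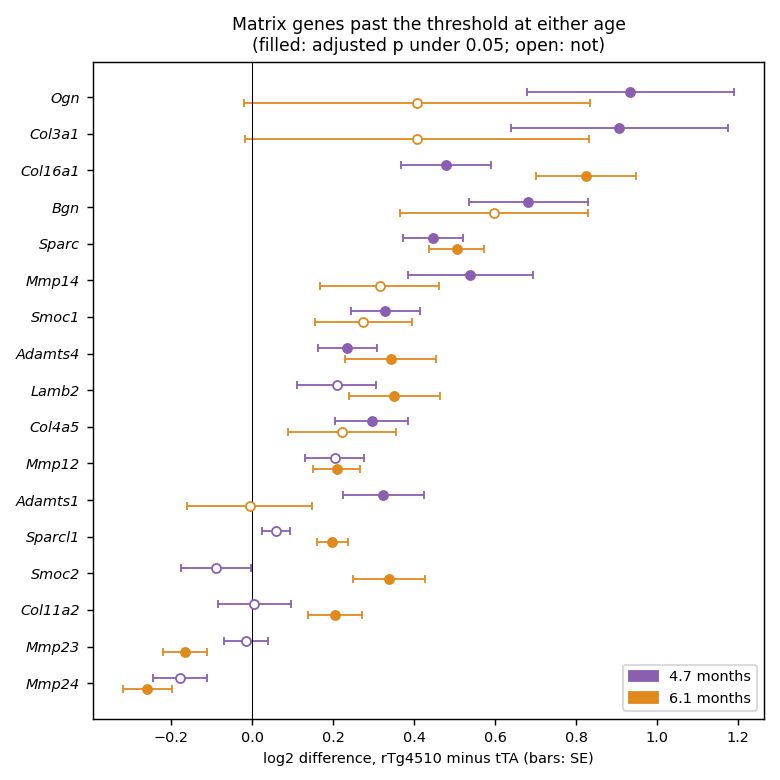
Difference between rTg4510 and tTA mice (x axis, log2 scale, bars are SE) for the 17 matrix genes past the threshold at 4.7 months (purple) or 6.1 months (orange), filled where the adjusted p was under 0.05. Col16a1 and Sparc lay to the right at both ages. Smoc2 gave -0.09 at 4.7 months and 0.34 at 6.1 months, in different mice.

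At 4.7 months the mean signals of meningeal and of choroid plexus markers were higher in rTg4510 than in tTA mice, with overlap, and their part in the results was not tested beyond the models below. The mean log2 signal of 9 measured meningeal and perivascular fibroblast markers (of 12 listed) was 4.46 to 5.77 (median 5.38) in rTg4510 and 4.33 to 5.42 (median 4.51) in tTA mice, a difference of 0.60 (SE 0.167). Of these genes 1, Islr, passed on its own (0.69, adjusted p = 0.0179). The mean of 10 measured choroid plexus markers (of 12 listed) was 4.20 to 8.34 (median 7.15) against 4.20 to 7.96 (median 4.46), a difference of 1.58 (SE 0.643), with 0 of 10 past the threshold. With the meningeal score as a covariate in the model, 1 of the 10 members kept its call at 4.7 months, Sparc (0.33, SE 0.0757, adjusted p = 0.0133). With the choroid plexus score, 4 of 10 did, Bgn (0.55), Col16a1 (0.50), Smoc1 (0.33) and Sparc (0.43). With the meningeal score the difference of Col3a1 went from 0.91 to 0.12 and that of Ogn from 0.93 to 0.22. Bgn went from 0.68 to 0.31, Mmp14 from 0.54 to 0.31, Smoc1 from 0.33 to 0.16 and Col4a5 from 0.29 to 0.08. The differences of Col16a1 (0.48 to 0.33), Adamts1 (0.32 to 0.23) and Adamts4 (0.23 to 0.22, adjusted p = 0.235) moved less, though their calls were lost too. With the choroid plexus score the members that lost their calls gave 0.69 (Col3a1), 0.50 (Ogn), 0.41 (Mmp14), 0.22 (Col4a5), 0.20 (Adamts4) and 0.19 (Adamts1).

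At 6.1 months the meningeal score was 4.82 to 5.80 (median 5.18) in rTg4510 against 4.31 to 6.88 (median 4.91) in tTA mice, a difference of 0.20 (SE 0.29). The choroid plexus score was 4.59 to 8.51 (median 7.20) against 4.25 to 8.26 (median 6.42), a difference of 0.76 (SE 0.76). All 10 calls at 6.1 months were kept with the meningeal score in the model and 7 of 10 with the choroid plexus score, which left outside Adamts4 (0.34 to 0.27, adjusted p = 0.0875), Lamb2 (0.35 to 0.30, adjusted p = 0.072) and Mmp23 (-0.17 to -0.15, adjusted p = 0.0769). Bgn then passed as well (0.46, adjusted p = 0.00106, meningeal score). Microglial markers were higher in rTg4510 mice, 8 of 11 measured at 4.7 months and 9 of 11 at 6.1 months, and so were 3 and 7 of 9 astrocyte markers. The microglial score was 6.71 to 7.83 against 6.57 to 7.23 in tTA mice at 4.7 months and 7.47 to 7.99 against 6.54 to 6.77 at 6.1 months. Of 4 measured markers of CA1 pyramidal neurons, 3 were lower in rTg4510 mice at 4.7 months and 4 at 6.1 months, with score differences of -0.61 (SE 0.0858) and -1.09 (SE 0.102). Of 8 measured general hippocampal neuron markers, 5 and 3 were lower. The CA1 score was 7.62 to 8.51 against 8.39 to 8.72 in tTA mice at 4.7 months and 7.21 to 7.84 against 8.48 to 8.77 at 6.1 months. Their part in the matrix differences was not tested, and the marker lists were chosen with earlier results of these data known.

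**Figure D2:**
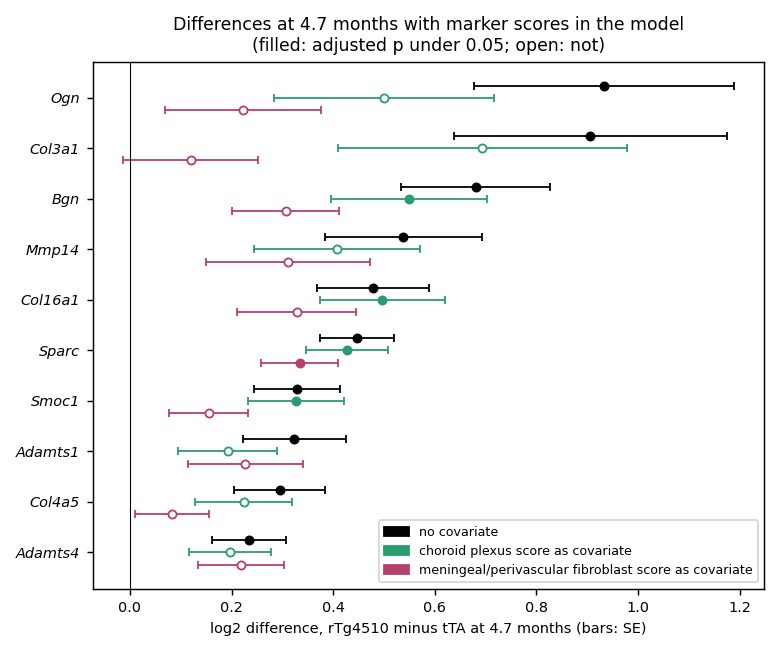
Differences of rTg4510 from tTA mice aged 4.7 months for the 10 matrix genes past the threshold (log2 scale, bars are SE) with no covariate and with each marker score in the model, filled where the adjusted p was under 0.05. Sparc stayed filled throughout.

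The comparison of tTA with DN mice, which shares the tTA mice with the comparison above, gave lower signals of Smoc2, Lum, Ogn and Mmp17 in tTA mice. Smoc2, a matricellular protein related to Sparc, had the lower signal in tTA mice at all 3 ages. Its values were 6.15 to 6.86 (median 6.40) in tTA and 7.04 to 7.68 (median 7.43) in DN mice at 4.7 months, and 5.87 to 6.37 (median 6.00) against 6.94 to 7.41 (median 7.11) at 6.1 months. At 10.7 months the tTA mice had 5.69, 5.71, 5.99, 6.15 and 6.16, and the DN mice 7.02, 7.15, 7.26, 7.44 and 7.47. No tTA mouse reached the lowest DN mouse of its age. The differences were -0.96 (SE 0.0863, adjusted p = 2.07e-09), -1.13 (SE 0.0767, adjusted p = 3.56e-11) and -1.33 (SE 0.116, adjusted p = 6.62e-05), that is 1.95-fold, 2.19-fold and 2.51-fold lower. rTg4510 mice were lower than DN mice too, by 1.05 at 4.7 months (-1.05, adjusted p = 2.04e-10) and by 0.79 at 6.1 months (-0.79, adjusted p = 1.27e-07), and every one of these 16 rTg4510 mice lay below every DN mouse of its age. The second probe set of Smoc2 was lower in tTA by 0.81, 0.98 and 1.10 (-0.81, -0.98 and -1.10).

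Lum encodes lumican and Ogn osteoglycin, both small leucine-rich proteoglycans. Lum in tTA mice was 3.83 to 5.46 (median 4.71) at 4.7 months, against 5.23 to 5.96 (median 5.66) in DN mice, a difference of -0.97 (SE 0.177, adjusted p = 0.000498), with 9 of 10 tTA mice below every DN mouse. At 6.1 months it was -0.97 (SE 0.203, adjusted p = 0.00276) and at 10.7 months -1.19 (SE 0.217, adjusted p = 0.0206). Ogn was lower in tTA by 1.56 at 4.7 months (-1.56, SE 0.256, adjusted p = 0.000121), 2.94-fold, and by 1.26 at 10.7 months (-1.26, SE 0.24, adjusted p = 0.0255), and gave -1.04 at 6.1 months (SE 0.369, adjusted p = 0.11). rTg4510 mice lay between the groups in both genes: Lum was lower than in DN mice at 6.1 months (-0.73, adjusted p = 0.0312) and Ogn was not past the threshold at either age (-0.62 and -0.64). With the meningeal score in the model, Ogn was lower than in DN mice at 4.7 and 6.1 months (-1.04 and -0.88, adjusted p = 3.28e-06 and 0.000933). Lum then passed at 4.7 months (-0.63, adjusted p = 0.00435). With the choroid plexus score Ogn gave -0.94 and -1.01 (adjusted p = 0.00191 and 0.0432) and Lum at 4.7 months -0.63 (adjusted p = 0.00483). At 10.7 months Lum kept its call in 5 of 10 fits without single mice and Ogn in 4, while Smoc2 and Lamc1 kept theirs in all 10. When the probe sets of each gene were averaged, 0 members were higher in tTA mice at 10.7 months and 3 were lower. Lamc1, which has 2 probe sets, thus lost its call.

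Mmp17, a membrane-bound metalloproteinase anchored by a lipid tail, was below its DN level in tTA mice by 0.27 (-0.27, adjusted p = 0.00122) at 4.7 months and 0.31 (-0.31, adjusted p = 2.09e-05) at 6.1 months. It did not pass at 10.7 months (-0.23, adjusted p = 0.291). It was lower in rTg4510 than in DN mice by 0.30 and 0.41 (-0.30 and -0.41) at 4.7 and 6.1 months. Mmp16 was lower in tTA mice at 6.1 months (-0.27, adjusted p = 0.00282). Higher in tTA mice was Smoc1 at 6.1 months (0.35, adjusted p = 0.0425, kept in 13 of 26 fits). Lamc1, a laminin chain of most basement membranes, was higher at 10.7 months (0.34, adjusted p = 0.01), with 5 of 5 tTA mice above every DN mouse. The Lamc1 call did not hold with its probe sets averaged. Over the 73 genes, 4 passed at 4.7 months (4 lower, against 3.98% of all probe sets, 1.35% higher and 2.63% lower), 5 at 6.1 months (1 higher, 4 lower, against 5.25%, 2.13% higher and 3.12% lower) and 4 at 10.7 months (1 higher, 3 lower, against 0.875%, 0.27% higher and 0.605% lower).

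Markers of dentate granule neurons moved with these differences. Their list too was chosen with earlier results of these data known. Of 7 dentate granule markers, 5 were lower and 1 higher in tTA mice of 4.7 months than in DN mice, 6 were lower at 6.1 months and 5 at 10.7 months. Their mean signal was 5.77 to 6.12 (median 5.95) in tTA and 6.30 to 6.79 (median 6.65) in DN mice at 4.7 months, with no overlap, and 5.60 to 5.88 against 6.53 to 6.76 at 6.1 months. At 10.7 months it was 5.56 to 5.81 against 6.45 to 6.80. The part of these markers in the lower Smoc2, Lum, Ogn and Mmp17 was not tested. Smoc2, Lum, Mmp17 and Ogn kept all their calls when either the meningeal or the choroid plexus score was added, and Ogn then passed at 6.1 months as well (-1.04, adjusted p = 6.74e-05, meningeal score).

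**Figure D3:**
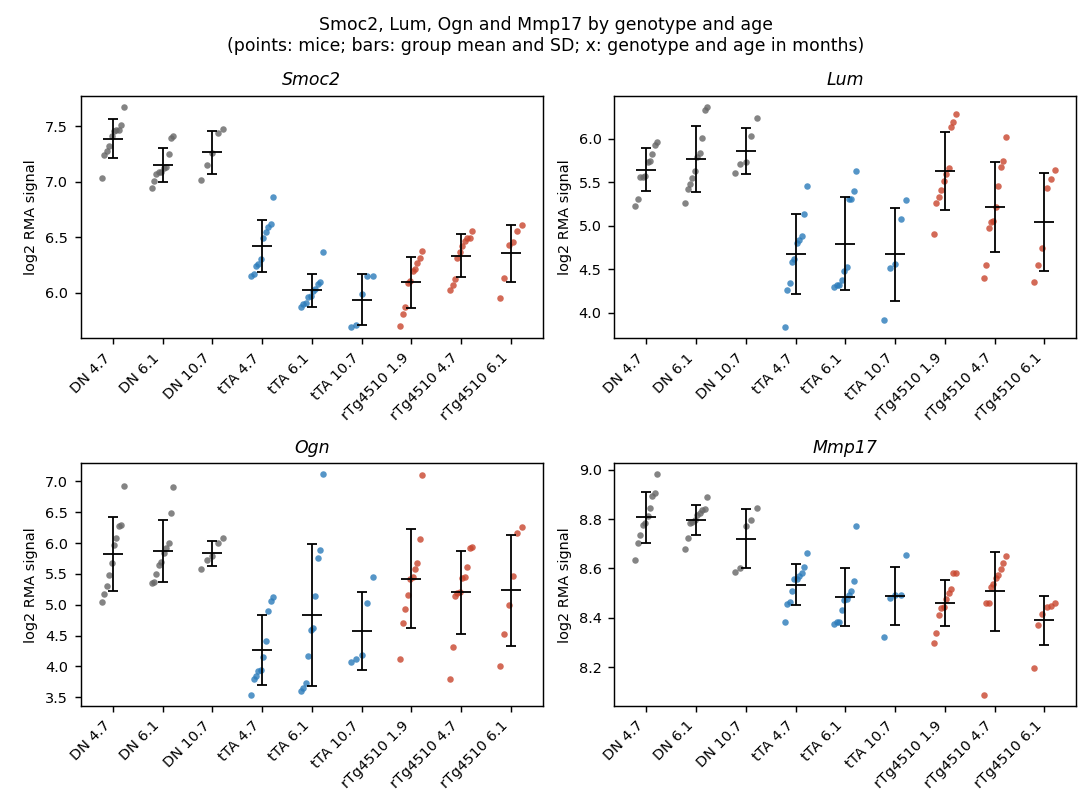
Log2 RMA signal of Smoc2, Lum, Ogn and Mmp17 (y axes) in each mouse, by genotype and age in months (x axes), with group means and SD as bars. In Smoc2, all tTA mice, and all rTg4510 mice of 4.7 and 6.1 months, lie below the DN mice of the same age, and 9 of the 10 tTA mice of 4.7 months below every DN mouse of that age in Lum.

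The rTg4510 and DN mice compared next are those of the comparisons above. At 4.7 months, 9 members passed (6 higher, 3 lower, against 13.3% of all probe sets, 6.51% higher and 6.83% lower) and at 6.1 months 14 (9 higher, 5 lower, against 17% of all probe sets, 7.17% higher and 9.85% lower, and 7 and 7 with each array centred on its median). With the meningeal score in the model 6 of the 9 and 14 of the 14 kept their calls, and with the choroid plexus score 7 and 12. Without rTg4510 mouse 40 the count at 4.7 months was 8. Dentate granule markers were lower in rTg4510 than in DN mice too, 6 of 7 at each age, with score differences of -0.83 (SE 0.0682) and -0.82 (SE 0.0717). CA1 markers were lower in 4 of 4 at each age, and 8 and 10 of 11 microglial markers were higher. The part of these markers in the matrix differences, Smoc2 included, was not tested. Col16a1 was higher by 0.79 (adjusted p = 4.21e-06) and 0.92 (adjusted p = 2.62e-06) and Sparc by 0.52 (adjusted p = 4.6e-06) and 0.68 (adjusted p = 1.74e-08). Bgn was higher by 0.70 (adjusted p = 0.000929) and 0.80 (adjusted p = 0.0156) and Smoc1 by 0.52 (adjusted p = 4.05e-05) and 0.63 (adjusted p = 0.00033). Mmp12, which was dim (mean log2 signal 2.96), was higher by 0.22 and 0.24 (adjusted p = 0.034 and 0.00462). Mmp16 was lower by 0.24 and 0.45 (-0.24 and -0.45) and Mmp24 by 0.20 at 6.1 months (-0.20, adjusted p = 0.0202). Mmp14 (0.46), Col11a2 (0.34), Lamb2 (0.32) and Sparcl1 (0.13) passed at 6.1 months, and Adamts4 (0.23) at 4.7 months.

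**Figure D4:**
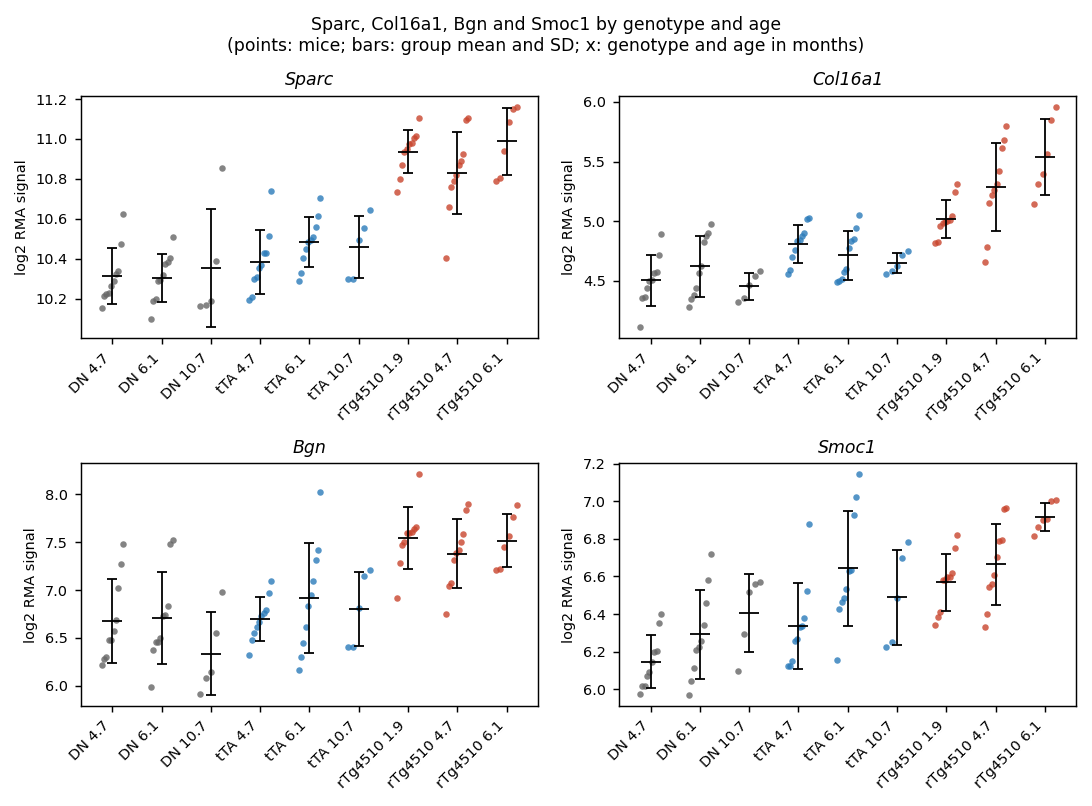
Log2 RMA signal of Sparc, Col16a1, Bgn and Smoc1 in each mouse, by genotype and age in months, with group means and SD as bars. All 6 rTg4510 mice of 6.1 months lie above every tTA and every DN mouse of that age in Sparc and Col16a1.

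With age, few members changed. In rTg4510 mice (1.9, 4.7 and 6.1 months), 1 member passed the test of any difference between ages, Smoc1, which was 0.35 higher at 6.1 than at 1.9 months (SE 0.0839, adjusted p = 0.047), against 2.54% of all probe sets (1.05% higher, 1.49% lower). Without rTg4510 mouse 40 the count was 2. Its call held in 10 of 26 fits without single mice. In tTA mice (4.7, 6.1 and 10.7 months), 2 members passed against 0.243% of all probe sets (0.133% higher, 0.11% lower), Mmp14, 0.82 higher at 10.7 than at 4.7 months (SE 0.156, adjusted p = 0.0364, 13 of 25 fits), and Smoc2, lower by 0.49 (-0.49, SE 0.104, adjusted p = 0.0364, 16 of 25 fits). In DN mice 0 members passed with limma against 0.305% of probe sets (0.115% higher, 0.19% lower), with 12 members (16.4%) and 2687 probe sets (11.9%) at an unadjusted p under 0.05.

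Of the 73 members, 21 (28.8%) passed in at least 1 comparison and 52 in none. Over all probe sets, 28.3% passed in at least 1. Dcn (decorin) differed by 0.38 (SE 0.187, adjusted p = 0.255) at 4.7 months and 0.12 (SE 0.152, adjusted p = 0.697) at 6.1 months between rTg4510 and tTA mice. Fn1 (fibronectin) gave 0.01 (SE 0.122) and -0.01 (SE 0.153). Col4a1 and Col4a2, the main chains of vascular basement membranes, gave 0.22 and 0.11 at 4.7 months and -0.05 for both at 6.1 months, where the sign changed with the processing. Col1a1 gave 0.71 at 4.7 months (SE 0.241, adjusted p = 0.0694), Col9a3 0.92 (SE 0.338, adjusted p = 0.1), Col6a1 0.24, Col25a1 -0.10 and Lamb1 -0.06. Col1a2 had no probe set under the rule. These misses are not evidence that the genes were equal.

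Within groups, some members correlated with the marker scores of non-neuronal cells. Of the 73 members, 14 had an r above 0.5 with the meningeal and perivascular score and 8 with the choroid plexus score. With the endothelial and mural scores 10 did each, with the microglial score 1 and with the astrocyte score 2. An r below -0.5 was found for 2 members with the microglial score, 3 with the astrocyte score and 0 with each other score. The median r of the members was 0.03 to 0.17, depending on the score. The share over all probe sets was not computed. After subtracting each group's mean, the mean of the small leucine-rich proteoglycans correlated with the meningeal and perivascular score at r = 0.886 (rho 0.891, both permutation p 1e-05, the smallest that 100000 permutations can give, adjusted p = 2.85e-05), 0.876 without the 2 most extreme mice. Fibronectin and fibulin 1 gave 0.894 with the same score and the laminins 0.794. The fibrillar collagens gave 0.848 with the mural score. The beaded, network and anchoring collagens gave 0.690 with the choroid plexus score. These are values of role means, and single members differed widely. Col8a1 gave 0.95 with the choroid plexus score, and the other members of its role ran from -0.27 to 0.12. Single fibrillar collagens ran from -0.15 to 0.78 with the mural score. Single laminins ran from -0.15 to 0.77 with the meningeal score. In this family of 74 relations the SPARC family followed astrocyte (0.656) and microglial (0.627) scores most closely, with 0.311 for the meningeal score (adjusted p = 0.0147), though Smoc1 alone gave 0.46 with the meningeal score against 0.24 and 0.27 with the microglial and astrocyte scores. Among single members, Col9a3 (0.97), Col8a1 (0.95) and Mmp2 (0.88) tracked choroid plexus and Col3a1 (0.93), Col1a1 (0.92) and Fbln1 (0.92) tracked meningeal markers. Sparc followed astrocytes (0.67) and microglia (0.66). Col4a1 and Col4a2 rose and fell together (r = 0.914), whereas Smoc1 and Smoc2 did not (r = -0.08), nor Sparc and Sparcl1 (r = 0.14). The points share the arrays and the amplification of 76 mice.

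**Figure D5:**
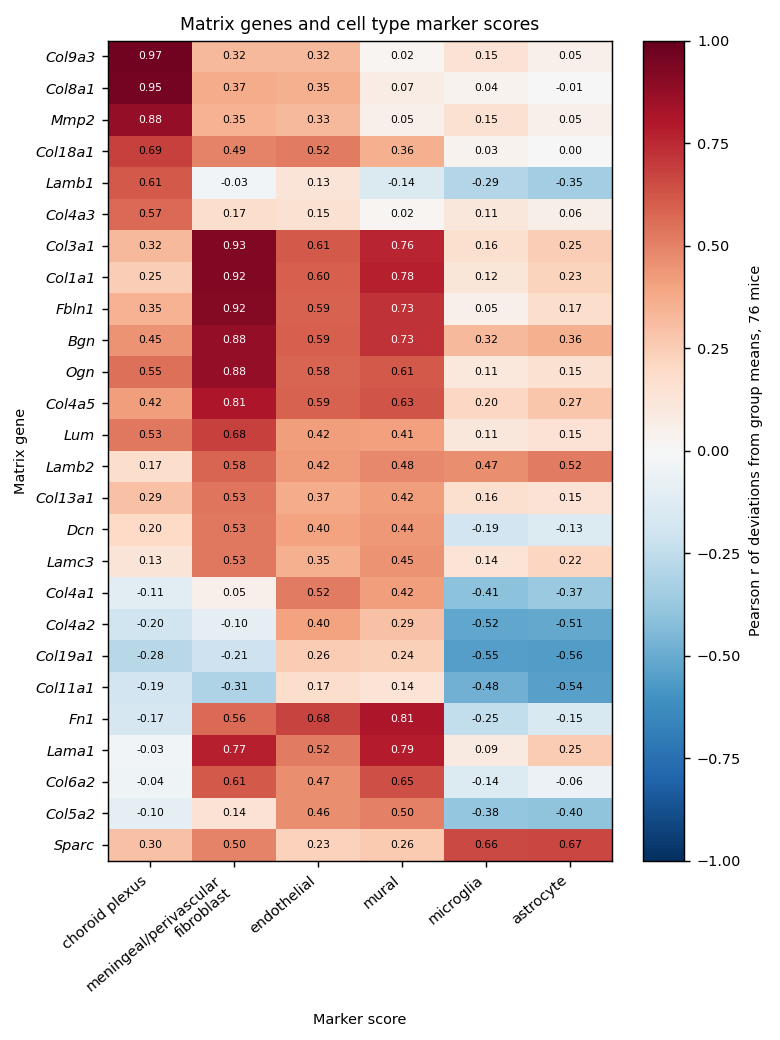
Pearson r between the deviations from group means of 26 matrix genes (rows, those with an r beyond 0.5 in either direction) and of 6 marker scores (columns) over 76 mice. Col9a3, Col8a1 and Mmp2 stand out in the choroid plexus column and Sparc in the glial columns.

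Other genes that handle the matrix were followed in lists, to be read against the 4.47% higher and 3% lower of all probe sets at 4.7 months and the 5.54% higher and 7.08% lower at 6.1 months. Among 16 matrix receptors, 5 were higher at 4.7 months and 3 at 6.1 months in rTg4510 than in tTA mice and 0 lower, including Cd44, the hyaluronan receptor, by 0.94 and 1.29 (adjusted p = 0.00168 and 9.26e-05), and the integrin Itgb5 by 0.73 and 0.82. Of 5 protease inhibitors, 3 were higher at 4.7 months and 1 at 6.1 months, Timp1 by 0.63 and 0.66 and A2m by 1.47 at 4.7 months. Of 11 genes of collagen synthesis and crosslinking, 3 rose at 4.7 months, and at 6.1 months 2 rose and 1 fell, with Lox, which crosslinks collagen and elastin, at 0.45 and 0.61. Of 13 other matricellular genes, 4 rose at 4.7 months, and at 6.1 months 2 rose and 1 fell, with Thbs4 at 0.82 and 1.19. Of 10 genes of the perineuronal and brain matrix, 1 was higher and 2 lower at 4.7 months and 1 higher at 6.1 months. Ptprz1, a receptor phosphatase and proteoglycan of glia, was higher by 0.26 and 0.43, and Acan, the aggrecan of perineuronal nets, was lower by 0.32 at 4.7 months (-0.32, adjusted p = 0.0207). Of 3 other basement membrane genes, 0 passed at either age.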

How the data were processed

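Hippocampal RNA was amplified (Ovation Pico WTA) and hybridised to Affymetrix HT MG-430A arrays, and the authors deposited log2 values from RMA (background correction, quantile normalization and probe summary). The RMA version is not given in the sources used here. The table held 22716 probe sets; 90 controls were left out and 22626 tested. Of these 18003 had 1 gene symbol in the platform annotation, 287 several and 4336 none. Array medians were 5.23 to 5.39. Groups came from the labels' genotype and age, and replicates were separate mice. The study excluded an outlying tTA array of this series at 6.1 months; whether it is among those used cannot be read from the labels.

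Differences were tested with limma 3.58.1 (R 4.3.3; lmFit, eBayes), one model per age over its genotypes, an F test over ages within each genotype and an interaction of genotype with age, two-sided, with Benjamini-Hochberg adjustment over all probe sets at 0.05. The steps were tested on simulated data. Marker scores were means of log2 signals, and correlations used deviations from group means with 100000 permutations; 5 of the 74 relations were chosen after seeing the data and are not printed. Genes were named when they passed in a comparison, were the brightest of their role, belonged to a pair (Smoc1 and Smoc2, Col4a1 and Col4a2, Col1a1 and Col1a2, Sparc and Sparcl1) or moved most in a pathway list; Col8a1, Mmp2 and Fbln1 were named for their correlations after these were seen. Members and lists were chosen with earlier results of these data known. Alternatives were other scalings, filters, probe sets, covariates and models and leaving out each mouse. The number of arrays limits the precision.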

Additional observations from a re-analysis of the deposited data

Results flagged for a closer look

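Among 189 sets of values (a gene in a group), 11 held a mouse far from the others of its group by Dixon's test, in 8 genes. Chance marks about 1 in 20 groups. In DN mice, the signal of Adamts1 was 5.558 in mouse 25 of 6.1 months (nearest 5.944), of Adamts4 5.301 in mouse 73 of 4.7 months (nearest 5.555), of Lamb2 4.525 (nearest 4.062) and of Mmp14 5.701 (nearest 4.939) both in the same mouse of 10.7 months. In tTA mice of 4.7 months, Lamb2 was 4.763 (nearest 4.218) and Smoc1 6.881 (nearest 6.523), both in mouse 69, and Mmp12 3.241 in mouse 61 (nearest 2.988). In tTA mouse 21 of 6.1 months, Smoc2 was 6.369 (nearest 6.100) and Mmp17 8.772 (nearest 8.549), the mouse that also stood apart over all probe sets. Without it the differences between tTA and DN mice at 6.1 months were -1.17 for Smoc2 and -0.35 for Mmp17. In rTg4510 mice Mmp17 was 8.088 in mouse 37 of 4.7 months (nearest 8.459) and 8.197 in mouse 7 of 6.1 months (nearest 8.371).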

How the results depend on the processing

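No paired analysis was possible because each mouse number belongs to 1 mouse of 1 group and none is shared between groups. Counts of matrix genes past the threshold moved by over 1.5 times as follows, and the cause was not tested. In the setting with probe sets above the median alone, only 20 of the 73 members were tested, so calls of dimmer members could not be kept. Between rTg4510 and tTA mice of 4.7 months the count of 10 became 6 with a plain linear model, 5 on the linear scale, 6 with probe sets above the median alone, 4 with the choroid plexus score and 1 with the meningeal score. At 6.1 months the count of 10 became 6 with probe sets above the median, and against DN mice 14 became 9. Between tTA and DN mice the 5 of 6.1 months became 8 with all 9 groups in one model, and the 4 of 10.7 months became 2 with a plain linear model, on the linear scale and with probe sets above the median. For age in rTg4510 mice the 1 became 0 with a plain linear model, on the linear scale, with centred arrays and with quantile normalization, and 2 without mouse 40 and without mice numbered 75 and above. For age in tTA mice the 2 became 0 with a plain linear model and on the linear scale, and 1 with probe sets above the median. Leaving out single mice gave 5 to 16 and 5 to 13 (rTg4510 against tTA, 4.7 and 6.1 months), 7 to 12 and 9 to 17 (against DN), 4 to 5, 4 to 8 and 2 to 4 (tTA against DN at 4.7, 6.1 and 10.7 months), 0 to 2 for age in rTg4510 and in tTA mice, and 0 for age in DN mice and for the interaction. Signs turned at 6.1 months between rTg4510 and tTA mice for Adamts4 (-0.0449), Mmp23 (0.0237) and Mmp24 (0.0143) with their other probe sets, for Col4a1 with the choroid plexus score (0.00452), the mean of its probe sets (0.000767), without tTA mouse 13 (0.00306) and with its other probe set (0.0531), and for Col4a2 with the choroid plexus score (0.0116) and without tTA mouse 15 (0.00217). Col1a1 at 4.7 months turned to -0.0206 with the meningeal score. Over the named genes, 595 values of called differences kept their call, 137 lost it and 3 turned. Without mouse 40 the 9 between rTg4510 and DN mice at 4.7 months became 8. Without mouse 21, counts at 6.1 months were 10 (rTg4510 against tTA), 15 (against DN, from 14) and 5 (tTA against DN), and 2 genes passed for age in tTA mice.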
